A study of Mus musculus with 5 samples.

Results

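Ldha, Pkm and Pgk1 were among the abundant transcripts in Treg cells of all 5 libraries, while Hk2 was low. The genes of this pathway did not all follow the same order over the libraries. The 10 genes described here are Slc2a1, Slc2a3, Hk1, Hk2, Pfkl, Pfkp, Tpi1, Pgk1, Pkm and Ldha, chosen by symbol as glucose transporters and glycolytic enzymes out of 38130 gene entries. The glucose transporter Slc2a3 was the only member whose value in both libraries with the C472A allele of Malt1 stood clear of wild type of the same age, 1 of 10, by a rule that 16% of tested genes met upwards and 13% downwards. Tpi1 was the only member past 2-fold in the library with Malt1 deleted, against wild type of its age, where 14.3% of tested genes were. Against the other wild-type library 0 of 10 members were past 2-fold, where 5.59% of tested genes were. That count used a log2 scale with 1 added, on which Tpi1 fell just short, while its plain ratio was 2.03. With Malt1 deleted 9 of 10 members were above age-matched wild type, where 51.1% of tested genes were, though Slc2a1 and Slc2a3 barely. Against the other wild-type library 9 of 10 were above, where 48.2% were. With the C472A allele 7 of 10 members were on average above either wild-type library, where 49.2% and 49.9% were. In limma's test of the C472A libraries against wild type of the same age, 0 of 10 members passed, against 0.00885% of tested genes. An unadjusted p under 0.05 was found for 1 of 10 members and for 10.7% of tested genes. In simulated data this test recovered 0% of 2-fold to 16-fold changes, so its lack of calls says little.

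RNA was sequenced from CD4+YFP+ Treg cells sorted from C57BL/6 mice, in 4 groups. KI had 2 libraries at 6 weeks of age from mice with 1 floxed and 1 C472A allele of Malt1, a genotype that the labels describe as inhibition of the protease activity of Malt1 in Treg cells. KO had 1 library at 21 days of age from mice with floxed Malt1 alleles, deleted in Treg cells. Wild type (WT) had 1 library at 6 weeks and 1 at 21 days. All groups carry the Foxp3-driven Cre joined to yellow fluorescent protein, so that sorting and recombination both depend on Foxp3, and WT differs in carrying no altered Malt1 allele. In KI, recombination of the floxed allele leaves C472A as the other copy, so that gene dosage as well as protease activity can differ from WT. Malt1 encodes a paracaspase that relays antigen receptor signals to NF-kB. Whether each library is a separate animal or a pool is not stated, so p-values measure the spread between these libraries, which may be technical.

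Glycolysis splits glucose into pyruvate and yields ATP without oxygen. Glucose enters through facilitative transporters, is trapped by hexokinase and committed by phosphofructokinase, and the later steps end in pyruvate kinase and lactate dehydrogenase. Activated effector T cells are known for a high glycolytic rate, while Treg cells rely more on mitochondrial oxidation and Foxp3 is known to restrain glycolysis.

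Values are FPKM, fragments per kilobase of transcript normalised to the mapped fragments, divided by a factor per library that equalises the typical gene, and are called scaled FPKM. The bounds quoted lie 2 standard errors from the value and reflect errors of counting and assignment, not differences between animals. Depth estimated from the bounds was 26.5 and 25.9 M fragments (M for mega) in KI, 8.44 M in KO, 7.46 M in 6-week WT and 30.6 M in 21-day WT. Libraries stood together across genotype and age. Across the 11296 tested genes, 21-day WT correlated with the KI libraries at r = 0.951 and 0.943 and KO with 6-week WT at 0.939. The KI libraries correlated with each other at 0.930, less than either did with 21-day WT. With 6-week WT the KI libraries correlated at 0.887 and 0.901. Age-matched comparisons therefore run across these sets of libraries and across depth, and for the members and the lists of glucose metabolism the other WT library is given too. Foxp3 had 70.1 and 73.6 scaled FPKM in KI, 30.5 in KO, 39.5 in 6-week WT and 70.7 in 21-day WT. The 6 Treg markers summed to 895 and 825 in KI, 383 in KO, 423 in 6-week WT and 784 in 21-day WT. Markers of plasmacytoid dendritic cells summed to 21.2 and 28.3 in KI, 43.3 in KO, 124 in 6-week WT and 44.7 in 21-day WT, and those of myeloid cells to 57.0, 30.7, 60.5, 139 and 36.3 in the same order. Markers of B cells summed to 4.25 and 3.07 in KI, 8.80 in KO, 23.6 in 6-week WT and 17.7 in 21-day WT. Markers of NK cells summed to 1.69 and 1.64 in KI, 16.9 in KO, 6.75 in 6-week WT and 2.46 in 21-day WT, and those of red cells and platelets to 28.5, 3.56, 2.56, 55.8 and 6.88 in the same order. Of the 6 plasmacytoid dendritic cell markers 1 was listed at 0 in KI replicate 1. Of the 10 myeloid markers 2 were at 0 in KI replicate 2 and 1 in 21-day WT. None of the 6 B cell markers was at 0 in any library. Klra8 and Klre1, of the 5 NK cell markers, were listed at 0 in both KI libraries and in KO. Gzma, the only tested NK cell marker, was 9.63-fold 21-day WT in KO. The 8 red cell and platelet markers had 4 at 0 in KI replicate 2 and in KO, 3 in 6-week WT and 2 in 21-day WT. Markers shared by all T cells summed to 1161 and 1457 in KI, 1763 in KO, 2186 in 6-week WT and 1653 in 21-day WT. The part of these cells and of the library sets in any result below was not tested, and in bulk RNA fewer cells of a type and less RNA per cell cannot be told apart. Malt1 itself had 55.9 and 37.8 scaled FPKM in KI, 17.6 in KO, 15.2 in 6-week WT and 27.0 in 21-day WT, so that the library labelled KO lies between the WT libraries for the targeted gene. A value summed over the gene need not fall when some of its exons are deleted.

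Ldha and Pkm were the most abundant members in every library and Hk2 was the least abundant. FPKM is per transcript length, so levels can be set side by side between genes. Ldha lay above 98.1% and 98.5% of the 11296 tested genes in KI, 98.7% in KO, 98.4% in 6-week WT and 98.0% in 21-day WT. Pgk1 came next after Ldha and Pkm in all 5 libraries. All 10 members passed the filter for testing, a mean of at least 1 scaled FPKM over the libraries.

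**Figure D1:**
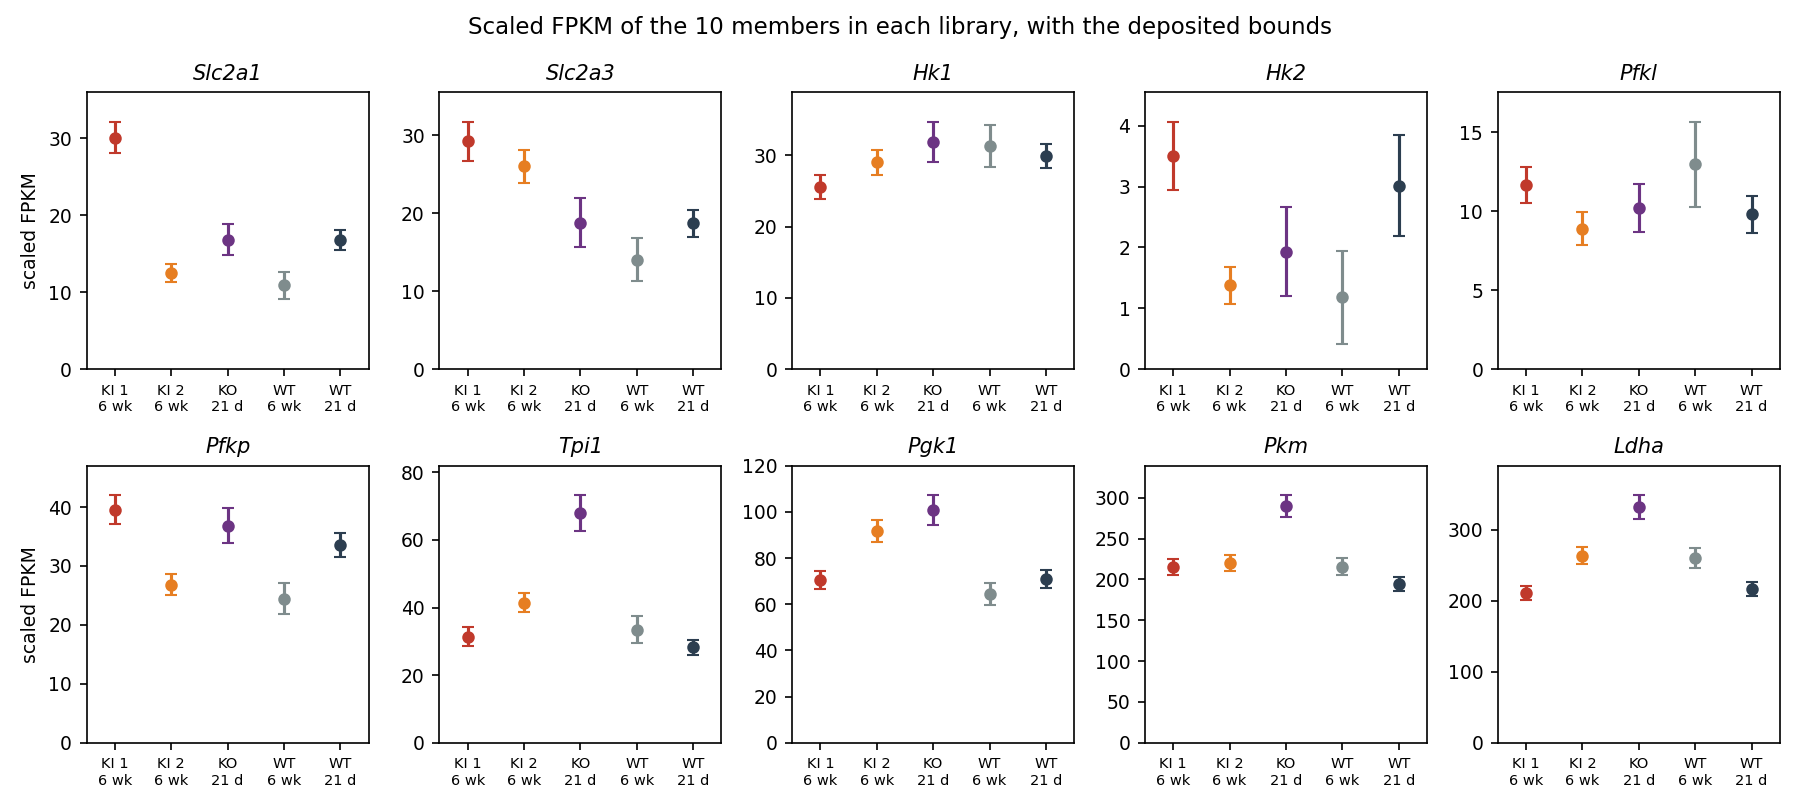
Scaled FPKM (vertical axis, linear, from 0, a separate range per gene) of the 10 genes in the 5 libraries; points are single libraries and bars are the deposited bounds, 2 standard errors either way. Slc2a3 is higher in both KI libraries than in the other 3, Tpi1 is highest in KO at 68.0, and Slc2a1 and Hk2 differ within the KI pair.

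Glucose transporters. Slc2a1 (chromosome 4, 119108711 to 119137330, GRCm38) encodes Glut1, the widely expressed transporter that activated T cells place on their surface. Slc2a1 had 30.1 and 12.5 scaled FPKM in KI replicates 1 and 2, 16.8 in KO, 10.9 in 6-week WT and 16.8 in 21-day WT. The KI mean was 21.3 ± 12.4 (SD, n = 2). KI replicate 1 stood alone at the top, while KI replicate 2 overlapped 6-week WT within the bounds and lay below 21-day WT. The KI libraries differed from each other by 2.41-fold in scaled FPKM. For Hk2, described below, they differed by 2.54-fold. On the log2(scaled FPKM + 1) scale, which shrinks differences of low genes such as Hk2, Slc2a1 alone, 1 of 10 members, was past 2-fold between the KI libraries, as were 6.59% of tested genes. Slc2a3 (chromosome 6, 122727809 to 122801640) encodes Glut3, a high-affinity transporter of neurons and lymphocytes. Slc2a3 had 29.2 and 26.0 scaled FPKM in KI, 18.8 in KO, 14.03 in 6-week WT and 18.7 in 21-day WT. The KI mean was 27.6 ± 2.29 (SD, n = 2). Both KI libraries were above all others with bounds apart, and KO and 21-day WT were level. The pair of transporters summed to 59.3 and 38.5 in KI, 35.6 in KO, 24.9 in 6-week WT and 35.5 in 21-day WT.

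Hexokinases and phosphofructokinases. Hk1 (chromosome 10, 62268855 to 62379908), the housekeeping hexokinase bound to mitochondria, had 25.6 and 29.0 scaled FPKM in KI, 31.9 in KO, 31.3 in 6-week WT and 29.9 in 21-day WT. It had the smallest range of the members, 1.25-fold between the highest and the lowest library. Hk2 (chromosome 6, 82725025 to 82774454), the inducible isozyme, had 3.51 and 1.38 scaled FPKM in KI, 1.93 in KO, 1.18 in 6-week WT and 3.02 in 21-day WT. Ranked by level, each library overlapped the next within the bounds, but KI replicate 1 and 21-day WT each stood clear of KI replicate 2 and 6-week WT. The lowest value rested on about 9.69 fragments, with bounds of 0.422 and 1.94. Pfkl (chromosome 10, 77986947 to 78010083), the liver-type subunit of phosphofructokinase, had 11.7 and 8.89 scaled FPKM in KI, 10.2 in KO, 13.0 in 6-week WT and 9.80 in 21-day WT. Ranked by level, each library overlapped the next within the bounds, while KI replicate 2 stood below KI replicate 1 and 6-week WT with bounds apart. Pfkp (chromosome 13, 6579768 to 6648777), the platelet-type subunit, had 39.6 and 26.9 scaled FPKM in KI, 36.9 in KO, 24.5 in 6-week WT and 33.5 in 21-day WT. KI replicate 1, KO and 21-day WT formed the upper end, and KI replicate 2 and 6-week WT the lower, with a gap between the bounds.

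Later enzymes. Tpi1 (chromosome 6, 124810586 to 124814296) interconverts the triose phosphates. Tpi1 had 31.4 and 41.5 scaled FPKM in KI, 68.0 in KO, 33.5 in 6-week WT and 28.2 in 21-day WT. KO stood alone at the top, and KI replicate 2 came next with bounds apart on both sides. Pgk1 (chromosome X, 106187100 to 106203699), which makes the first ATP of the pathway, had 70.4 and 91.7 scaled FPKM in KI, 101 in KO, 64.4 in 6-week WT and 71.0 in 21-day WT. KO and KI replicate 2 overlapped each other and lay above the other 3 libraries. Pkm (chromosome 9, 59656368 to 59679375), pyruvate kinase of muscle and most dividing cells, had 215 and 220.3 scaled FPKM in KI, 289.6 in KO, 216 in 6-week WT and 194 in 21-day WT. Ldha (chromosome 7, 46841475 to 46855627), which turns pyruvate into lactate, had 211 and 263 scaled FPKM in KI, 332 in KO, 259.6 in 6-week WT and 217 in 21-day WT. For Pkm and Ldha KO was highest with bounds apart from every other library. Of the 40 neighbouring pairs in the order of levels of the 10 genes, 13 had bounds apart. The same count was not made over all tested genes, so it gives no contrast with them.

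The members did not share 1 order over the libraries. KI replicate 1 was the highest library for Slc2a1, Slc2a3, Hk2 and Pfkp, and 6-week WT was the lowest for the same 4 genes and for Pgk1. KO was the highest library for Hk1, Tpi1, Pgk1, Pkm and Ldha, and 6-week WT was the highest for Pfkl. Slc2a1 and Pfkp had one and the same order, KI replicate 1, KO, 21-day WT, KI replicate 2 and 6-week WT from high to low. Tpi1 and Pkm shared another, KO, KI replicate 2, 6-week WT, KI replicate 1 and 21-day WT. The summed later enzymes divided by the summed kinases, a ratio that needs no scaling between libraries, was 6.58 and 9.32 in KI, 9.77 in KO, 8.20 in 6-week WT and 6.69 in 21-day WT. The KI libraries lay near opposite ends of that range. A list of 8 proliferation genes summed to 214 and 409 scaled FPKM in KI, 307 in KO, 234 in 6-week WT and 198 in 21-day WT. It was high in KI replicate 2 and KO, as the ratio was, and its part in the ratio was not tested.

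**Figure D2:**
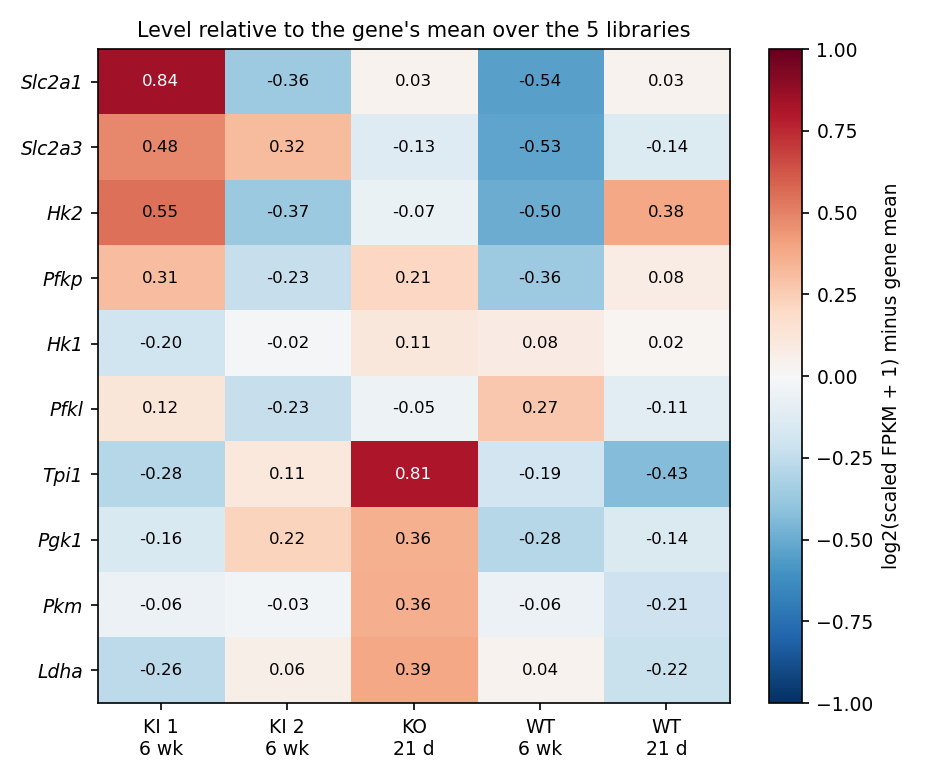
Each cell gives log2(scaled FPKM + 1) minus the gene's mean over the 5 libraries, for the 10 genes (rows) and the libraries (columns), red above and blue below the mean. The transporters, Hk2 and Pfkp are highest in KI replicate 1, and Hk1 and the 4 later enzymes are highest in KO.

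Promoter sequences from RefSeq (GRCm38.p6), 250 bases before to 50 after a start site, were found for 9 of the 10 members, 12 promoters in all. Slc2a3 was not matched. Both strands were searched for the core letters bound by hypoxia-inducible factors, ACGTG in one form and, with another first base, GCGTG in the other, since Slc2a1, Pgk1 and Ldha are textbook targets of that family. The E-box CACGTG, read by Myc and related factors, was searched too and contains the first of these cores. At least 1 match to either core was present in 9 of the 12 promoters, against 43.8% of 32851 promoters of the same length. The core ACGTG was present in 6 of the 12, against 19.6% of all promoters. Among all promoters 32.4% held the other core and 7.15% the E-box. Among the member promoters, the other core was in those of Slc2a1, Pfkl and Pfkp, the second of Hk1 and both of Ldha. The E-box was in the first Ldha promoter only. The 4 sequences below belong to the transporter with the widest range between libraries and to the later enzymes Tpi1, Pgk1 and Ldha. Pkm, a later enzyme also highest in KO, is not shown. It held no match to either core at its first start site and 2 to ACGTG at its second. The second Ldha start site, not shown either, held 2 matches to GCGTG. Each printed sequence is written 5′ to 3′ on the gene's strand, with matches to either core in capitals, whichever strand they lie on. Slc2a1 is chr4:119108495-119108794, plus strand. Tpi1 is chr6:124814109-124814408, minus strand. Pgk1 is chrX:106186850-106187149, plus strand. Ldha is its first start site at chr7:46845554-46845853, plus strand.
Slc2a1: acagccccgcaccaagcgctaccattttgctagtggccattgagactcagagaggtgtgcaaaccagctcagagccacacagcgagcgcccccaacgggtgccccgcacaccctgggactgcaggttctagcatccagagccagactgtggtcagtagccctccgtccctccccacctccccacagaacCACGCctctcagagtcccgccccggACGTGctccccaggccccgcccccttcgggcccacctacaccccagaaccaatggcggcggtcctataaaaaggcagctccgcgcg
Tpi1: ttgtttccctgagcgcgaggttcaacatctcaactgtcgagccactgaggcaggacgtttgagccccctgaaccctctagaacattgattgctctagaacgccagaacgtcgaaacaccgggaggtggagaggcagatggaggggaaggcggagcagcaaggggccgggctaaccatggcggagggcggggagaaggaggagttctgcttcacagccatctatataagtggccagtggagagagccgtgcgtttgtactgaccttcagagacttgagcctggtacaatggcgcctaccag
Pgk1: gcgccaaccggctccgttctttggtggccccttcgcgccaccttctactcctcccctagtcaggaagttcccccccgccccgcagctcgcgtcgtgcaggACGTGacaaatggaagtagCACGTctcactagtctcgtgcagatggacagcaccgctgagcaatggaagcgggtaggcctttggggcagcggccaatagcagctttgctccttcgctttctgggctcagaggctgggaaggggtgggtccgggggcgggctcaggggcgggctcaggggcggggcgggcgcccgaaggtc
Ldha: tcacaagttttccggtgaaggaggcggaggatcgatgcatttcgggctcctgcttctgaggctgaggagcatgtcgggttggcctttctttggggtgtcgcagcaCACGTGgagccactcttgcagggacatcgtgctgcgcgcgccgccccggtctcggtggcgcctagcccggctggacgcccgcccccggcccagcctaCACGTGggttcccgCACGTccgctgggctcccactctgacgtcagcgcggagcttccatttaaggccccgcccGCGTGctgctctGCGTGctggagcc
The Ldha window held 5 matches to ACGTG over both strands, of which its 2 palindromic E-boxes give 4, and 2 matches to the other core. Slc2a1 held 1 match to each core. Pgk1 held 2 matches to the first. Tpi1, the member that stood furthest above WT in KO, held no match to either core in its window. A match is a run of letters and not a measured site, and no binding was measured here.

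Inhibition of Malt1 protease activity, as the labels have it, was compared with WT of the same age, KI against 6-week WT. Slc2a3 had the largest difference of the members, 0.93 on the log2(scaled FPKM + 1) scale (SE 0.237), or 1.01 and 0.84 in KI replicates 1 and 2. Its adjusted p in limma was 0.449, with an unadjusted p of 0.0239. It was the only member with bounds apart from WT in both KI libraries, 1 of 10 higher and 0 of 10 lower, where 16% of tested genes were higher and 13% lower. Against 21-day WT the difference of Slc2a3 was 0.54, and 2 of 10 members, Slc2a3 and Pkm, had bounds apart above WT in both KI libraries, against 5.86% of tested genes. Slc2a1 differed by 0.78 (SE 0.615), with 1.38 in KI replicate 1 and 0.18 in KI replicate 2 (limma, adjusted p = 0.648). Hk2 differed by 0.59, with 1.05 and 0.12 in the KI replicates, so that for both genes a single library carries the difference.

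The other members lay closer to WT. Differences were 0.40 for Pfkp, 0.31 for Pgk1, 0.10 for Tpi1, 0.01 for Pkm, -0.14 for Ldha, -0.19 for Hk1 and -0.32 for Pfkl, and on FPKM as deposited Tpi1 and Pkm turned negative. In limma 0 of 10 members were called and 1 had an unadjusted p under 0.05. Over all tested genes limma called 1 gene, 0.00885%, and 10.7% had an unadjusted p under 0.05. By size, none of the members, 0 of 10, passed 2-fold in each of the KI libraries, where 5.81% of tested genes did. On average over the KI libraries 7 of 10 members were above 6-week WT, where 49.2% of tested genes were, and 5 on FPKM as deposited. The median difference of the members was 0.21 and that of all tested genes was -0.0045. On FPKM as deposited these medians were -0.08 and -0.26. In simulated data the limma fit recovered 0% of 2-fold to 16-fold changes over all 11296 genes, so its lack of calls says little. Over protein-coding genes only, it called 15 genes, 0.152%, and 0 of 10 members.

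Deletion of Malt1 was compared with 21-day WT, with 1 library on each side and no replicate check. Tpi1 in KO was 2.41-fold WT in scaled FPKM, a log2 difference of 1.24, and was the only member past 2-fold, as were 14.3% of tested genes in either direction and 6.13% upwards. Ldha had a difference of 0.61, Pkm of 0.57 and Pgk1 of 0.50. These 4 later enzymes had bounds above WT, 4 of 10 members, where 24.5% of tested genes did. Of the upstream members, Hk2 had -0.45, with bounds that overlapped WT. The other upstream values were 0.13 for Pfkp, 0.09 for Hk1, 0.05 for Pfkl, 0.01 for Slc2a3 and 0.00 for Slc2a1. By sign 9 of 10 members were above 21-day WT, where 51.1% of tested genes were. The median of the members was 0.11, against 0.02 over all tested genes. On FPKM as deposited all tested genes shift by 0.35 in the median and the members by 0.49.

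Against 6-week WT the same KO library gave 0.9996 for Tpi1, just short of 2-fold on this scale, 0.64 for Pgk1, 0.42 for Pkm and 0.35 for Ldha. Slc2a1 then had 0.58, Pfkp 0.57, Hk2 0.43, Slc2a3 0.40, Hk1 0.03 and Pfkl -0.32. Slc2a1, Pfkp and the later enzymes, 6 of 10 members, had bounds above WT, against 10.1% of tested genes, and 0 of 10 were past 2-fold, against 5.59%. In scaled FPKM Tpi1 was 2.03-fold 6-week WT. By sign 9 of 10 members were above 6-week WT, where 48.2% of tested genes were. Both comparisons use the same KO library. The ratio of Tpi1 to Pgk1, free of scaling, was 0.446 and 0.452 in KI, 0.674 in KO, 0.520 in 6-week WT and 0.397 in 21-day WT, so that Tpi1 was high in KO relative to another later enzyme too. All 8 proliferation genes were higher in KO than in 21-day WT, 4 of them past 2-fold, with a median of 1.02, and their part in the values of the later enzymes was not tested.

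**Figure D3:**
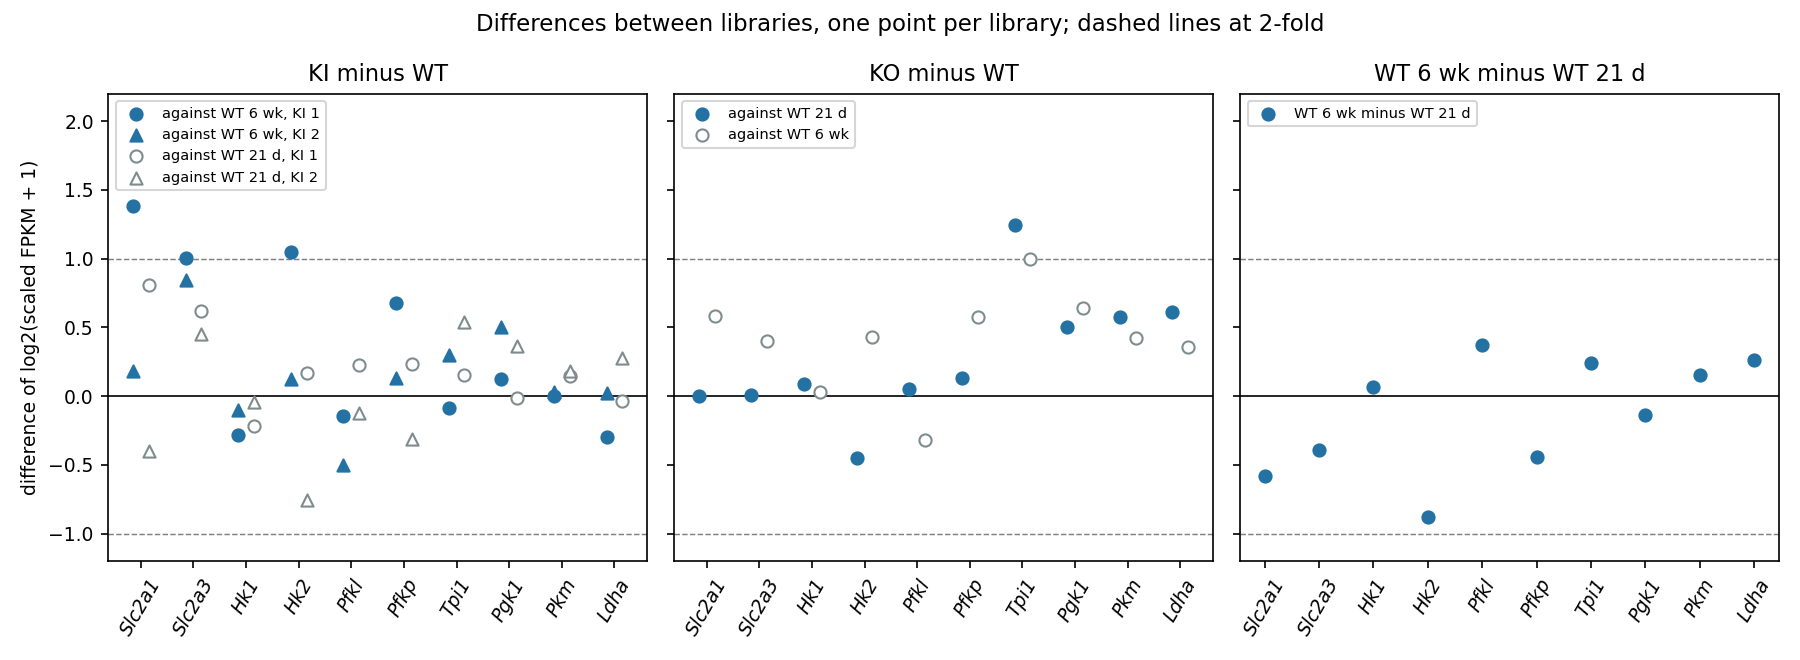
Differences in log2(scaled FPKM + 1) for the 10 genes, in KI (each replicate against 6-week WT and, open, against 21-day WT), in KO (against 21-day WT and, open, against 6-week WT) and between the WT ages; 1 point per library, dashed lines at 2-fold. Slc2a3 is near 1 in both KI replicates (1.01 and 0.84), and the later enzymes Tpi1, Pgk1, Pkm and Ldha are above 0 in KO against either WT library.

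The WT libraries themselves differed for several members. 6-week WT against 21-day WT gave -0.88 for Hk2, -0.58 for Slc2a1, -0.44 for Pfkp and -0.39 for Slc2a3. These 4 members had bounds apart below 21-day WT, against 23% of tested genes. Ldha at 0.26 and Pkm at 0.15 had bounds apart above it, 2 of 10, against 18.6%. Pfkl had 0.37, Tpi1 0.24, Hk1 0.06 and Pgk1 -0.14. By size 0 of 10 members were past 2-fold, against 8.56% of tested genes. The median was -0.04 over the members and 0.01 over all tested genes. On FPKM as deposited these medians were 0.34 and 0.35, and Pgk1 turned to 0.25. Age and library set cannot be told apart here, as each WT age has 1 library.

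Shares of a family within a library do not depend on scaling between libraries. Ldha made up 94.7% and 94.8% of Ldha plus Ldhb in KI, 94.9% in KO, 91.4% in 6-week WT and 92.0% in 21-day WT, with 2 standard errors of between 0.550 and 1.08 percentage points. All 3 mutant libraries were above both WT libraries, with intervals apart. KI and KO are different genotypes, so the 3 are not replicates of a condition, and no test was made. Ldhb, the isoform that favours the conversion of lactate to pyruvate, had 11.8 and 14.5 scaled FPKM in KI, 17.9 in KO, 24.5 in 6-week WT and 18.7 in 21-day WT. Its KO value was near that of 21-day WT, whereas its values in both KI libraries were the lowest.

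Pfkp was the leading phosphofructokinase gene, with 72.3% and 68.9% of Pfkl, Pfkp and Pfkm in KI, 71.9% in KO, 58.6% in 6-week WT and 72.2% in 21-day WT. 6-week WT was the library that stood apart, and Pfkl took 31.1% there. Hk1 held 87.4% and 95.4% of the hexokinase FPKM in KI, 94.1% in KO, 95.6% in 6-week WT and 90.6% in 21-day WT. Hk2 held 11.99% and 4.53% in KI, 5.70% in KO, 3.62% in 6-week WT and 9.15% in 21-day WT, and the KI libraries lay further apart than the other 3. Slc2a3 held 42.0% and 57.3% of the glucose transporter FPKM in KI, 39.3% in KO, 41.7% in 6-week WT and 45.1% in 21-day WT. Slc2a1 held 43.2% and 27.6% in KI, 35.1% in KO, 32.4% in 6-week WT and 40.5% in 21-day WT. Slc2a3 led with intervals of 2 standard errors apart in KI replicate 2, while in the other 4 libraries the intervals of Slc2a1 and Slc2a3 overlapped.

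**Figure D4:**
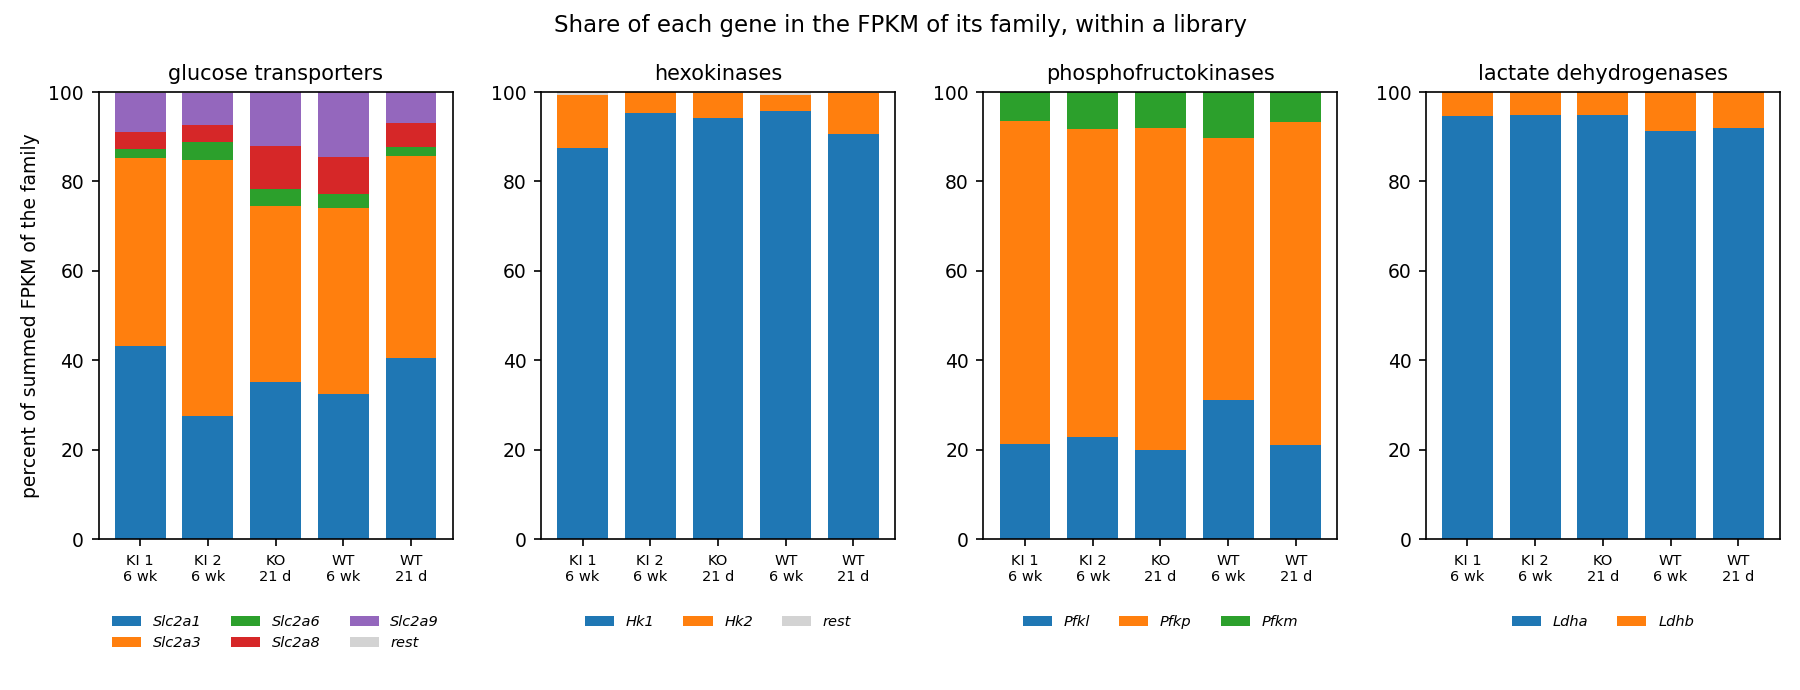
Percent of the summed FPKM of a gene family (vertical axis) held by each gene in each library (horizontal axis), for glucose transporters, hexokinases, phosphofructokinases and lactate dehydrogenases. Ldha is near 95% in the KI and KO libraries and near 92% in both WT libraries, and Pfkp is lowest in 6-week WT at 58.6%.

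Other genes of glucose metabolism were read from 7 lists. Of the 12 tested other glycolytic enzymes, 3 lay above and 9 below 6-week WT in KI, between 0.72 for Gapdh and -0.89 for Eno3, with a median of -0.28. In KO against 21-day WT 9 lay above and 3 below, between 0.89 for Aldoa and -0.59 for Gapdh, with a median of 0.35. Between the WT ages 10 lay above and 2 below, from 0.77 for Bpgm to -0.43 for Gapdh, with a median of 0.36. Both mutant results depended on the WT library. Against the other one, KI had 7 above and 5 below 21-day WT with a median of 0.057, and KO had 6 above and 6 below 6-week WT with a median of -0.011. Aldoa, which forms the triose phosphates, had 108 and 109.5 scaled FPKM in KI, 224 in KO, 158 in 6-week WT and 121 in 21-day WT, so that KO was highest as for Tpi1. No gene of this list was past 2-fold on the log2(scaled FPKM + 1) scale in these comparisons. In scaled FPKM, Pgam2 in KO was 2.68-fold 21-day WT, with bounds that overlapped. Aldoc in KI averaged 0.42-fold 6-week WT, without bounds apart in both KI libraries.

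Among 12 tested regulators of glycolytic flux, Hif1a was the gene past 2-fold in both KI libraries. Hif1a, the oxygen-sensitive subunit of the hypoxia-inducible factor, had 82.3 and 92.8 scaled FPKM in KI, 42.1 in KO, 28.9 in 6-week WT and 69.2 in 21-day WT. Its difference was 1.57 against 6-week WT (limma, adjusted p = 0.319) and 0.33 against 21-day WT. 6-week WT was low for this gene, -1.23 against 21-day WT, so that the KI difference depends on the WT library used. KO had -0.70 against 21-day WT and 0.53 against 6-week WT. The lowest regulator in KI was Myc at -0.50, the highest in KO was Arrdc4 at 0.93, and the highest between the WT ages was Pfkfb4 at 0.62. Arrdc4 encodes an arrestin-like protein that lowers glucose uptake. On the log2(scaled FPKM + 1) scale it was past 2-fold only against 6-week WT in KO, at 1.07. In scaled FPKM it was 2.37-fold there and 2.12-fold against 21-day WT in KO. Regulators were split evenly, 6 above and 6 below, in KI, in KO and between the WT ages, with medians of 0.02, -0.01 and 0.06. Against the other WT library 6 were again above and 6 below in KI and in KO, with medians of 0.09 in KI and -0.09 in KO.

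Of 8 tested hypoxia-response genes outside glycolysis, 3 were above and 5 below 6-week WT in KI, between 0.98 for P4ha1 and -0.90 for Ddit4, with a median of -0.25. In KO 4 were above and 4 below 21-day WT, between 1.99 for Ddit4 and -0.95 for Bnip3l, with a median of -0.09. Ddit4, a stress-induced inhibitor of mTORC1, had 22.5 and 35.7 scaled FPKM in KI, 72.7 in KO, 53.8 in 6-week WT and 17.5 in 21-day WT. It was high in KO and in 6-week WT, and the difference between the WT ages was itself 1.57. In KI it was below 6-week WT and 0.66 above 21-day WT, so that its direction depends on the WT library. P4ha1 was lowest of the list between the WT ages, at -0.77. Against the other WT library the list had 3 above and 5 below in KI, with a median of -0.14, and 5 above and 3 below in KO, with a median of 0.21.

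Transporters of other sugars and of lactate numbered 6 tested. In KI 3 were above and 3 below, between 1.24 for the lactate exporter Slc16a3 and -0.26 for Slc2a8, with a median of 0.12. In KO 5 were above and 1 below, between 0.82 for Slc2a8 and -0.33 for Slc16a1, with a median of 0.50, and between the WT ages the ends were 0.61 for Slc2a9 and -0.42 for Slc16a1. Slc16a3 had 4.59 and 9.85 scaled FPKM in KI, 3.72 in KO, 2.29 in 6-week WT and 2.61 in 21-day WT, and the KI replicates differed among themselves. For entry of pyruvate into mitochondria, 2 of 7 genes were above WT in KI, between 0.03 for Mpc2 and -0.49 for Pdhb, and 3 of 7 in KO, between 0.22 for Dlat and -0.34 for Pdha1. For the pentose phosphate pathway 1 of 7 was above WT in KI, between 0.40 for Rpe and -0.60 for Taldo1, and 5 of 7 in KO, between 0.51 for G6pdx and -0.69 for Rpe. For gluconeogenesis and glycogen 4 of 6 were above WT in KI, between 0.48 for Pgm1 and -0.16 for Pck2, and 3 of 6 in KO, between 0.64 for G6pc3 and -0.65 for Pck2. None of these 4 lists held a tested gene past 2-fold on the log2(scaled FPKM + 1) scale in both KI libraries or in KO against 21-day WT. That scale shrinks differences of low genes. In scaled FPKM, KO against 21-day WT was 2.16-fold for Slc2a6, 2.12-fold for Slc2a8 and 2.02-fold for Slc2a9, with bounds apart only for Slc2a9. Slc16a3 in KI averaged 3.15-fold 6-week WT. Against the other WT library, 21-day WT for KI and 6-week WT for KO, transporters had 4 of 6 above in KI (median 0.25) and 5 of 6 in KO (median 0.35). Pyruvate entry then had 3 of 7 above in KI and 2 of 7 in KO, the pentose phosphate pathway 2 of 7 in KI and 5 of 7 in KO, and gluconeogenesis and glycogen 4 of 6 in KI and 4 of 6 in KO.

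**Figure D5:**
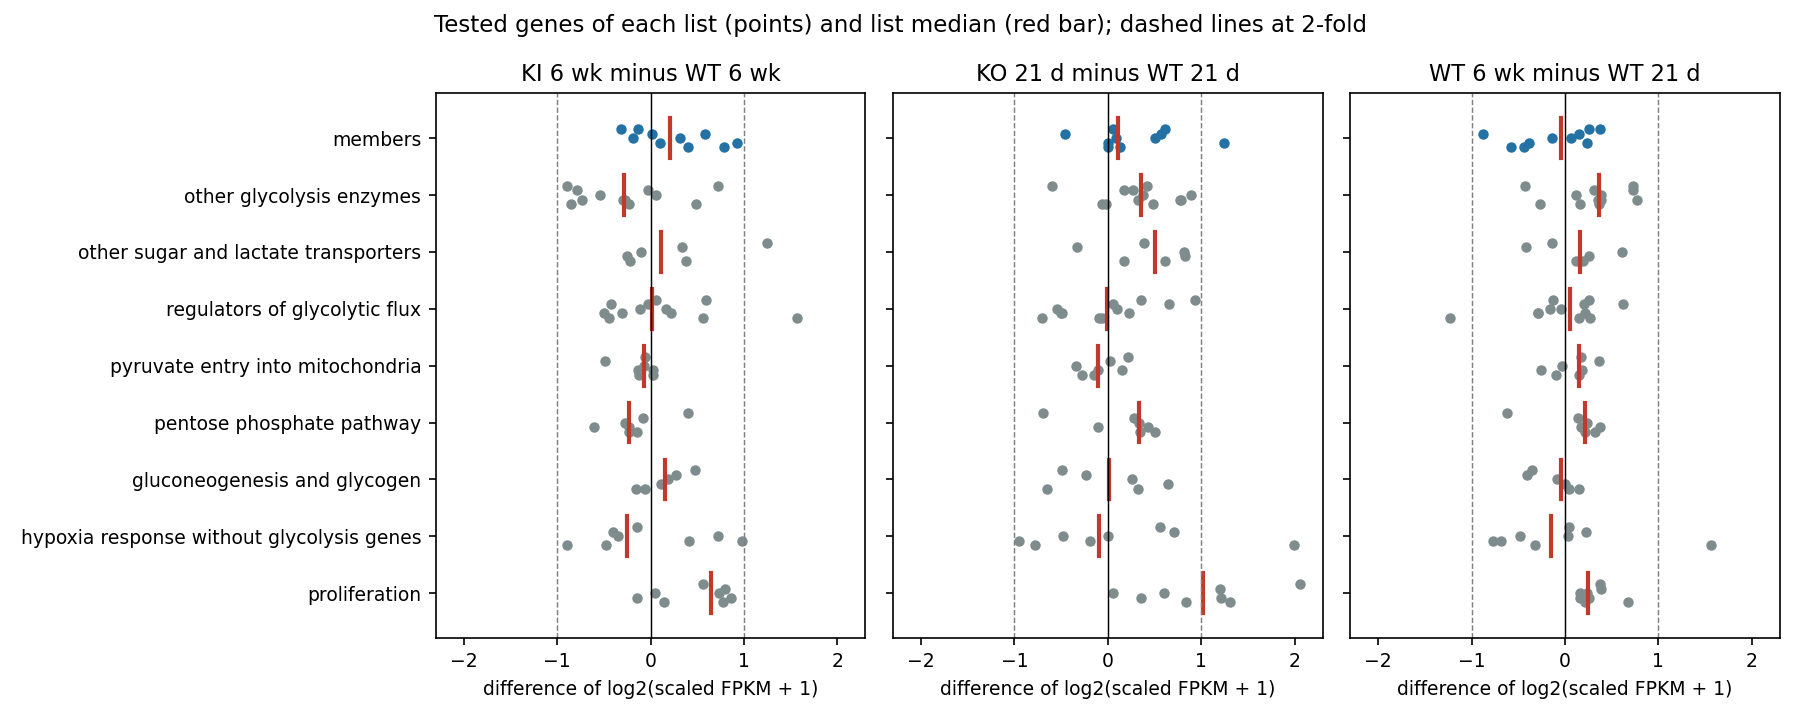
Differences in log2(scaled FPKM + 1) for the tested genes (points) of the members, of the 7 other lists of glucose metabolism and of the proliferation list, with list medians as red bars, in KI against 6-week WT, in KO against 21-day WT and between the WT ages. The medians of the other glycolytic enzymes are -0.28 in KI and 0.35 in KO, and against the other WT library, not drawn, they are 0.057 in KI and -0.011 in KO.

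Similar transcripts and overlapping genes limit some values. Gapdh shares at least 95% identity over 100 bases or more with 81 other genes, 77 of them pseudogenes, and copies in the files summed to 128 and 135 scaled FPKM in KI, 120 in KO, 90.5 in 6-week WT and 110 in 21-day WT. Gapdh itself had 14 and 29.8 in KI, 10.6 in KO, 12.1 in 6-week WT and 16.5 in 21-day WT, so its direction is uncertain. Such stretches cover 68.8% of the Pgk1 transcript, 65.5% of Pkm, 55.0% of Ldha and 19.3% of Tpi1. For Pgk1, 2 of the 4 genes that share them had values, which summed to at most 1.62 scaled FPKM. For Ldha 1 of 5 such genes had values, at most 0.187. For Pkm 0 of 2 and for Tpi1 0 of 1 had values. Reads shared with genes that lack values cannot be judged here. For Pfkp 18.0% is covered, by the opposite-strand neighbour Pitrm1. Pitrm1 had 7.44 and 8.73 scaled FPKM in KI, 8.35 in KO, 9.94 in 6-week WT and 8.97 in 21-day WT, so that the Pfkp values are uncertain by shared reads. For Hk1 3.67% is covered, by a gene of at most 2.94 scaled FPKM, and for Slc2a1 3.31%, by a gene of at most 0.459. Slc2a3, Hk2 and Pfkl had no copy of that kind. The processed pseudogene Gm4482 lies within Slc2a3 on the same strand, with 3.67 scaled FPKM in KI replicate 1 and a listed 0 in the other 4 libraries. Tpi1 overlaps Spsb2 on the opposite strand, which had 0.657 and 1.29 scaled FPKM in KI, 2.92 in KO, 2.09 in 6-week WT and 1.86 in 21-day WT, a small fraction of Tpi1. Strand use in counting is not given in the sources used here.

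For the 3 members with the widest range, the tested genes of most similar profile over the 5 libraries were found by the root mean square difference of mean-centred log2 values. For Slc2a1 they were Mink1 at 0.0939, Usp2 at 0.102 and H2-Q6 at 0.123. For Tpi1 they were Glipr2 at 0.0655, Susd3 at 0.0836 and Batf at 0.0880. For Hk2 they were Dnaja4 at 0.0760, the processed pseudogene Gm9396 at 0.0880 and Ssbp2 at 0.0963. Batf, a transcription factor of activated T cells, had 39.4 and 48.9 scaled FPKM in KI, 77.1 in KO, 41.9 in 6-week WT and 38.6 in 21-day WT. The likeness is a description over 5 libraries, chosen among 11296 genes.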

How the data were processed

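Total RNA of sorted CD4+YFP+ Treg cells was sequenced in 5 libraries. CASAVA, HISAT2 2.1.0, Cufflinks 2.2.1 and GRCm38 are named, without order or settings, per the submitters' processing notes. The authors deposited FPKM per gene with a lower and an upper bound, per the file headers. Each library was scaled by the median of its ratios to the geometric mean over the 9874 genes that reached FPKM 1 in every library (factors 0.868 and 1.01 for KI, 1.15 for KO, 1.15 for 6-week WT, 0.876 for 21-day WT). Comparisons used log2(scaled FPKM + 1), a scale that shrinks differences of low genes.

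For KI against 6-week WT, limma 3.58.1 in R 4.3.3 was run two-sided with an intensity trend. Its p-values were Benjamini-Hochberg adjusted over the 11296 genes averaging at least 1 scaled FPKM (threshold 0.05). Only the KI pair informs the spread, with 1 residual degree of freedom, and the lone WT library is taken to vary alike. Groups with 1 library have no test. Genes past 2-fold, in each KI library for KI, and genes with bounds apart were counted.

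In simulated data with 200 changed genes the fit recovered 0% over 11296 genes. Over 9870 protein-coding genes it recovered 2%, 76%, 98% and 100% of 2-, 4-, 8- and 16-fold changes, with 22 of 160 calls false. The members and lists were chosen with earlier results of these data known. The text names all members, list genes past 2-fold or at either end of a list, family genes, and the 3 genes most like each of the 3 most variable members. Batf and Aldoa were given in full after their values were seen. Copies were sought with blastn 2.17.0 in GENCODE M21 transcripts. Symbols are those of the files. Alternatives were FPKM without scaling, another pseudocount, the other WT library, limma without trend, protein-coding genes only and leaving out a KI library.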

Additional observations from a re-analysis of the deposited data

How the results depend on the processing

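No paired analysis was possible because KI has 2 libraries and every other group has 1. With 21-day WT in place of 6-week WT, the KI difference turned to -0.29 for Hk2, -0.039 for Pfkp, 0.051 for Pfkl and 0.12 for Ldha. On FPKM as deposited it turned to -0.18 for Tpi1 and -0.28 for Pkm. Leaving out a KI library gave -0.090 to 0.30 for Tpi1, -0.0026 to 0.030 for Pkm and -0.30 to 0.020 for Ldha. The other KI differences of the members kept their direction under these settings, and Slc2a3 did so under every setting run, with limma calling 0 members throughout. The cause of these changes was not tested.

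Counts over all genes moved more. limma called 1 gene, and 2 on FPKM as deposited, 50 at a pseudocount of 0.1, 15 over protein-coding genes, and 0 with 21-day WT or without trend. Genes past 2-fold in KI numbered 656, and 1055 at a pseudocount of 0.1, 134 with 21-day WT, and 1260 to 1492 with a KI library left out. Members past 2-fold in KI numbered 0, and 0 to 3 with a KI library left out, 3 without replicate 2 (Slc2a1, Slc2a3 and Hk2). With 6-week WT, KO had 632 genes and 0 members past 2-fold, against 1613 and 1. At a pseudocount of 0.1 the WT ages had 1498 genes and 1 member (Hk2), against 967 and 0. On FPKM as deposited, calls past 2-fold split into 217 higher and 539 lower in KI (340 and 316 when scaled), 1509 and 493 in KO (693 and 920), and 988 and 340 between the WT ages (382 and 585). A limma fit without the filter on low values is not used, since entries listed at 0 in both KI libraries have a residual variance of 0. Depth limits Hk2 most, above all in 6-week WT and KO.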
